A study of Mus musculus with 9 samples.

Results

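The 9 genes described here, Bcl2, Bcl2l1, Mcl1, Bak1, Bad, Bid, Bcl2l11, Bbc3 and Pmaip1, encode regulators of apoptosis of the Bcl2 family. They were taken by symbol from the count matrices of 9 mouse kidneys and make up 9 of the 32427 genes listed there. The rule that picks them uses no measured value, though they were chosen with earlier results of these data known. Their levels were followed in single cells by mouse, by group and by cell type as defined by marker genes.

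The proteins of this family meet at the outer mitochondrial membrane. Bcl2, Bcl2l1 (Bcl-xL) and Mcl1 keep cells alive by holding pro-apoptotic relatives in check. Bak1, like its relative Bax, can form pores in the membrane and release cytochrome c, which sets off the caspases. Bad, Bid, Bcl2l11 (Bim), Bbc3 (Puma) and Pmaip1 (Noxa) are BH3-only proteins, which relay death signals to these other members. Bbc3 and Pmaip1 are textbook targets of p53, and Bid is cleaved by caspase 8. Cisplatin damages DNA and injures the proximal tubule, so the family has long been studied in cisplatin-treated kidneys.

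Male C57BL/6 mice, 6 weeks old, formed 3 groups of 3 mice. Control mice received saline into the peritoneum. AKI-CKD mice received cisplatin by the same route at 8 mg/kg once a week, 4 times. AKI-CKD + EGT mice received the same cisplatin and also ergothioneine, a sulfur-containing amino acid taken up from food, at 0.5 mg/mL in the drinking water from 3 days before cisplatin to the end. Kidneys were taken after 8 weeks and dissociated, so the cells that survived this step are the ones measured, and cells that died and were cleared before then were not counted. The design asks which genes differ after cisplatin (AKI-CKD against Control) and which differ when ergothioneine is added (AKI-CKD + EGT against AKI-CKD). Both comparisons use the same 3 AKI-CKD mice.

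The libraries held 70106161 to 101525691 unique molecular identifiers (UMIs, each standing for 1 captured RNA molecule) per mouse. Of 216680 barcodes, 196925 were kept as cells, with a median of 2714 UMIs and 1147 genes. Cells fell into 30 clusters, of which 27 took the name of 1 of 13 cell types. Proximal tubule (PT) cells numbered 130899, loop of Henle (LOH) cells 8237, distal convoluted tubule (DCT) cells 12687, endothelial cells 3725 and macrophages 2031. Their clusters carried 6 to 10 of 13 PT markers, 8 of 8 LOH markers, 7 to 8 of 8 DCT markers, 8 of 8 endothelial markers and 9 of 9 macrophage markers at 1.5-fold or more over the other cells. Some names depended on Harmony, the correction of the clustering by library. Without it, 98.1% of PT cells, 96.8% of endothelial cells and 97.4% of macrophages kept their name, against 63.2% of LOH and 56.4% of DCT cells. The library of AKI-CKD + EGT mouse 3 stood apart. DCT cells made up 17.0% and PT cells 46.0% of its cells, against 2.55% to 7.52% and 60.0% to 75.2% in the other 8 libraries. Its mitochondrial share of UMIs before the limit on cells was the highest, at 9.28%, and Control mouse 3 had the lowest, at 1.69%. Barcode names were serial numbers, so the 19.7% to 29.2% of names that a pair of libraries shared do not show shared cells.

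Over the kept cells, Mcl1 gave 68839 UMIs, Bcl2l1 63965, Bad 40519 and Bid 30684. Pmaip1 gave 8671, Bcl2 8097, Bcl2l11 5916, Bak1 4432 and Bbc3 1971. Bbc3 was therefore the gene with the fewest reads behind its values, with a UMI in 0.900% of kept cells.

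The genes differed in which cell types held most of their RNA. Levels are given as CPM, the UMIs of a gene in the summed cells of a mouse scaled to the same total of UMIs everywhere, for the 12 cell types with at least 20 cells in every mouse. Among the genes that protect cells, Bcl2 was highest in collecting duct principal cells, with a lowest value of 70.9, a median of 87.8 and a highest value of 149 CPM over the 9 mice. It averaged 65.6 CPM in T cells, 48.8 in stromal cells, 36.5 in thin limb cells, 26.5 in LOH cells and 23.9 in DCT cells. PT cells held the least Bcl2, from 5.34 through a median of 7.29 to 14.6 CPM. The principal cell mean was 11.6 times the PT mean, and principal cells lay above PT cells in 9 of 9 mice.

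Bcl2l1 was highest in endothelial cells, at 166 to 271 CPM with a median of 213. Principal cells followed at a mean of 153 CPM, and T cells were lowest at 58.3 CPM, with PT cells between them at 87.3 CPM. Mcl1, a short-lived protein that needs steady synthesis, was also highest in endothelial cells, at 146 to 350 CPM with a median of 240. Macrophages had a mean of 223 CPM and stromal cells of 186 CPM. PT cells had the lowest Mcl1 level, 65.8 to 112 CPM with a median of 86.8. In T cells the protective genes thus stood at different places in their orders, the second place for Bcl2, the fifth for Mcl1 and the last for Bcl2l1.

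Bak1, the pore-forming member, averaged 22.7 CPM in endothelial cells, 16.9 in macrophages and 14.6 in stromal cells, and 4.93 CPM in PT cells, the lowest of the 12 types. Bad, a BH3-only protein held inactive by survival kinases, had the flattest order by mean log2(CPM + 1). It ran from 65.7 ± 8.89 CPM (SD, n = 9) in endothelial cells to 44.2 ± 10.2 CPM in T cells. In plain CPM the means of stromal (66.0) and cycling cells (65.8) were as high as that of endothelial cells. A B cell value of 212 CPM in 1 mouse was its highest. Bid ran the other way from most of the family. It was highest in PT cells, at 43.6 to 49.9 CPM with a median of 45.2, and lowest in principal cells, at a mean of 17.8 CPM.

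Bcl2l11, which is known for removing T cells, was highest there at 26.9 to 94.5 CPM with a median of 70.1. Endothelial cells followed at a mean of 17.7 CPM and macrophages at 16.4, while PT cells at 7.62 and LOH cells at 7.59 CPM were at the bottom. Bbc3 averaged 15.9 CPM in macrophages, 15.7 in endothelial cells and 14.6 in T cells, and no more than 6.64 in any of the other 9 types, down to 2.01 CPM in PT cells. Pmaip1 was highest in macrophages, at 13.4 to 49.3 CPM with a median of 26.5, and averaged 22.4 CPM in cycling cells, 17.6 in B cells, 12.9 in PT cells and 5.36 in intercalated cells.

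**Figure D1:**
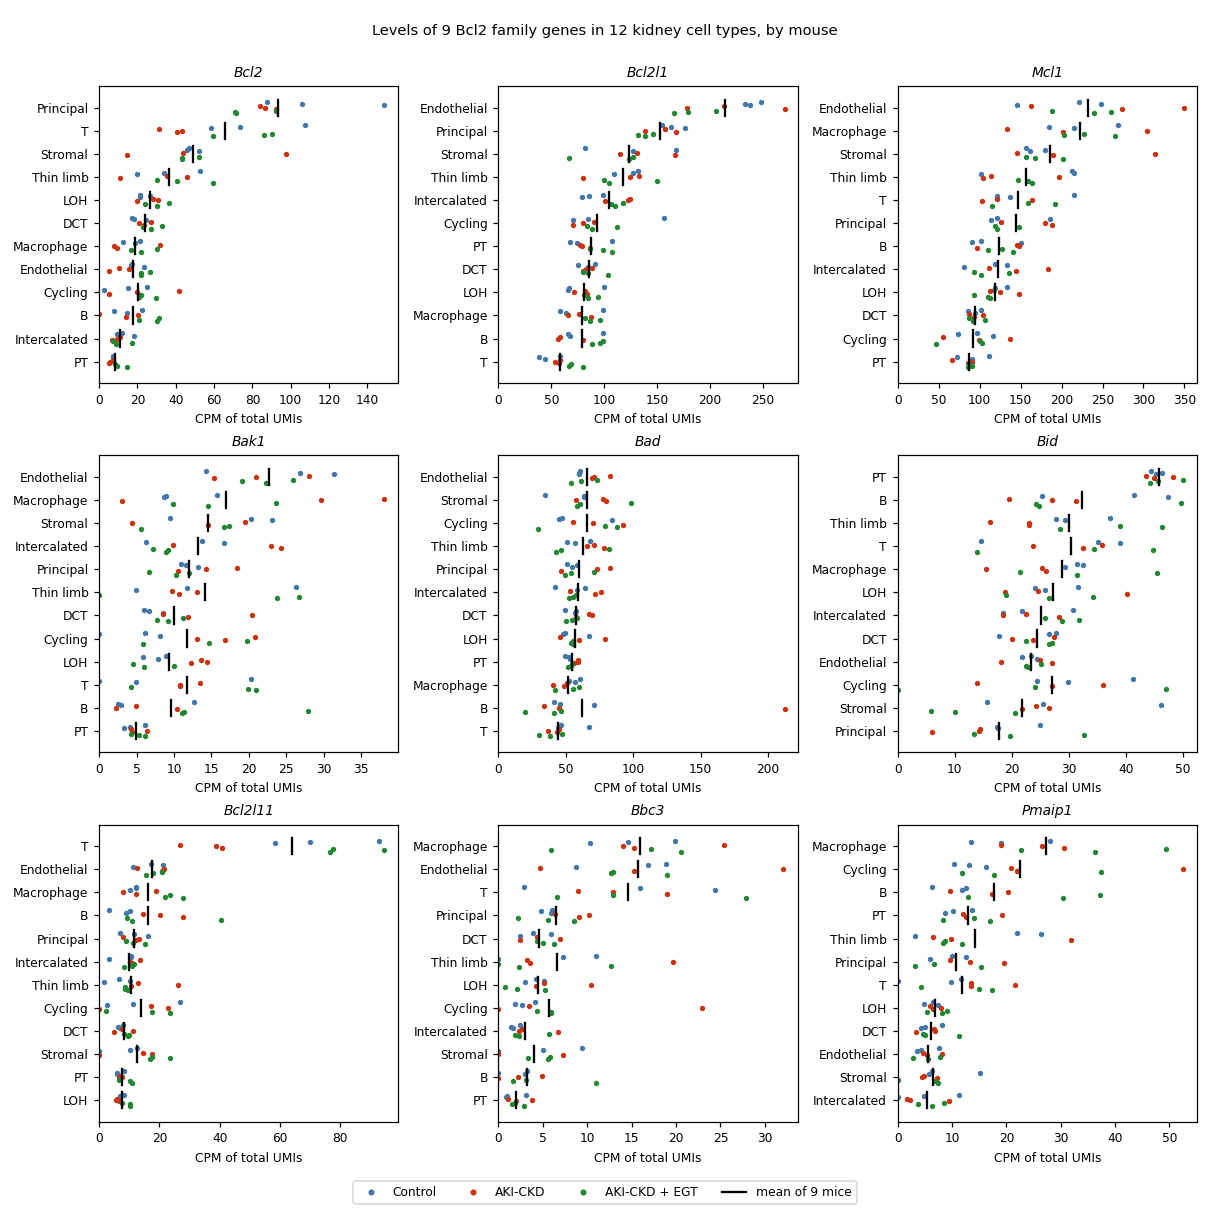
Levels of the 9 genes in 12 kidney cell types, in CPM of total UMIs on linear axes. Each point is 1 mouse, coloured by group, the black bar is the mean of 9 mice, and types run from the highest to the lowest mean log2(CPM + 1). PT cells stand at the bottom of the Bcl2, Mcl1, Bak1 and Bbc3 panels and at the top of the Bid panel.

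The order of neighbours was tested within mice. Of 99 pairs of neighbouring types, 0 differed in an exact two-sided sign-flip permutation test over the 9 mice after Benjamini-Hochberg adjustment (smallest adjusted p = 0.0967). Of these pairs, 9 had an unadjusted p under 0.05, and 4 reached 0.00391, the smallest p that 9 mice can give. These 4 were endothelial over principal cells and B over T cells for Bcl2l1, LOH over DCT cells for Mcl1, and T over endothelial cells for Bcl2l11. For Bcl2l11 the lowest T cell value (26.9 CPM) lay above the highest endothelial one (21.6 CPM). Since even the smallest possible p did not pass after adjustment here, the count of 0 does not show that neighbours are alike, and the places named above are an order of means. The highest type of Bcl2, Bcl2l1, Bak1, Bid, Bcl2l11 and Pmaip1 held under 13 of 13 other settings, while that of Mcl1 changed under 1, of Bad under 2 and of Bbc3 under 3. The lowest type held under all 13 for Bcl2, Bcl2l1 and Bid, but for Bcl2l11 it changed under 8, to PT, stromal cells or podocytes.

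Set against PT cells, a comparison chosen after the orders were seen, the types separated. In the same exact permutation test, 61 of 99 differences from PT cells passed (smallest adjusted p = 0.00943, the value that the smallest possible p takes after adjustment). Bcl2 was higher than in PT cells in 8 of the other 11 types, Mcl1 in 9, Bak1 in 7, Bbc3 in 6 and Bcl2l11 in 4. Bid was lower than in PT cells in 11 of 11 types. Bcl2l1 was higher in 4 and lower in 3, Pmaip1 higher in 2 (macrophages and cycling cells) and lower in 5, and Bad higher in endothelial cells and lower in T cells. Bcl2, Mcl1, Bak1 and Bbc3, 4 of the 9 genes, were thus higher than in PT cells in most of the other types, and Bid was lower in each of them. The test was not run over all genes, so these counts do not show a trait particular to the 9 genes.

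RNA of PT marker genes was found in every other cell type. The median of 13 PT markers reached 36.8% of its PT level in principal cells and 79.9% in B cells, the ends of the range over 11 types. Bid outside PT cells stood at 38.9% to 70.4% of its PT level, and in 10 of 11 types this lay within the range of the 13 PT markers in the same type. In T cells Bid lay above that range. Pmaip1 lay above that range in 6 types, within it in 4 and below it in 1. Bcl2l1 lay above it in 10, and Bcl2, Mcl1, Bak1, Bad, Bcl2l11 and Bbc3 in 11 of 11. The part of PT RNA from outside the cells in these levels was not tested.

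**Figure D2:**
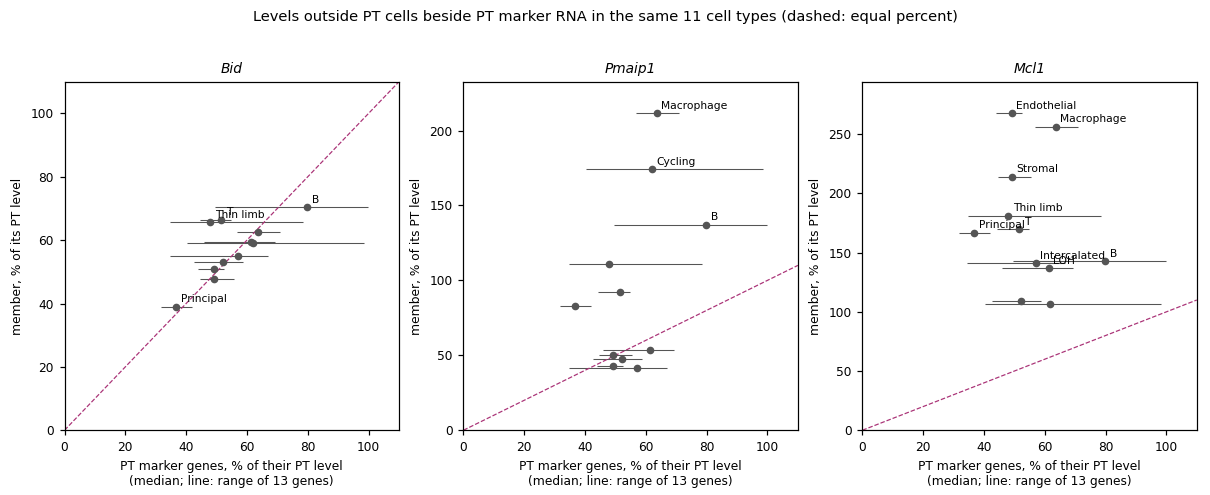
Level of Bid, Pmaip1 and Mcl1 in each of 11 cell types as percent of the level in PT cells (vertical axis), against the median of 13 PT marker genes in the same type, also as percent of PT (horizontal axis, with a line from the lowest to the highest marker). Points on the dashed diagonal have equal percentages: Bid runs from 38.9% to 70.4% along it, while Mcl1 lies above it in 11 of 11 types.

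Over the 12 types, the members' profiles were alike in some pairs. The highest correlations of mean log2(CPM + 1) between members were r = 0.80 for Mcl1 with Bak1 and r = 0.80 for Bcl2l1 with Bad, and the lowest was r = -0.67 for Bad with Bcl2l11. Among 5264 other genes with at least 50 CPM in some type, the closest profile to Bcl2 was that of Spacdr (r = 0.88), to Bcl2l1 that of Bmpr2 (0.94), to Mcl1 that of Ifitm3 (0.92), to Bak1 that of Ehd4 (0.94) and to Bad that of Nckap1 (0.95). For Bid it was Slc5a8 (0.91), a solute carrier, for Bcl2l11 Lypla2 (0.96), for Bbc3 Tpst2 (0.83) and for Pmaip1 Sema4d (0.84). The next closest were Cnot6l, Ptpra, Ifnar2, Rela, Hmg20b, Apeh, Ly6c2, Vsir and Cadm1, in the same order of members. These are descriptions over 12 points that share libraries and PT RNA.

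PT cells were not uniform. They fell into 10 clusters, placed here by the ratio of Slc5a2, the glucose transporter of the early proximal tubule, to Slc7a13, a transporter of its last segment. In the clusters richest in Slc7a13 (numbers 2, 6 and 8), Pmaip1 averaged 2.93, 3.63 and 7.56 CPM. In the clusters numbered 4, 5, 9 and 10, where Slc5a2 was at 874 to 1000.3 CPM, Pmaip1 averaged 12.2, 20.1, 22.1 and 32.8 CPM. The Pmaip1 means thus covered a wider range among PT clusters than among the 12 cell types.

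Mcl1 and Bid followed a similar split. Mcl1 averaged 46.4, 53.3 and 72.0 CPM in the 3 Slc7a13-rich clusters, against 98.7 to 152 CPM in the 4 others named. Bid averaged 24.4 to 40.5 CPM in the former and 50.7 to 68.1 CPM in the latter. Cluster 9, which had the highest level of Slc5a12 (814 CPM), the lactate transporter of the early tubule, also had the highest Bcl2 (22.0 ± 7.64 CPM, SD over 9 mice), Bcl2l1 (147 ± 32.9) and Bcl2l11 (17.8 ± 7.95) and the lowest Bad (40.0 ± 9.98) of the 10. Cluster 12, also rich in Slc5a2 at 814 CPM, had a Pmaip1 level of 8.03 and a Bid level of 38.3 CPM, so the split was not complete. Havcr1, Vcam1 and Lcn2, which injured tubules are known to switch on, reached at most 0.420, 0.327 and 0.433 CPM in any PT cluster. Cdkn1a, a p53 target taken up below, averaged 40.4 CPM in PT cells over the 9 mice. These 3 genes therefore do not stand for every injury signal, and the unnamed clusters, with 14.2% of cells, are outside these values. The members were kept out of the genes used for clustering, but other genes of the same cells made the clusters, so no test is given.

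**Figure D3:**
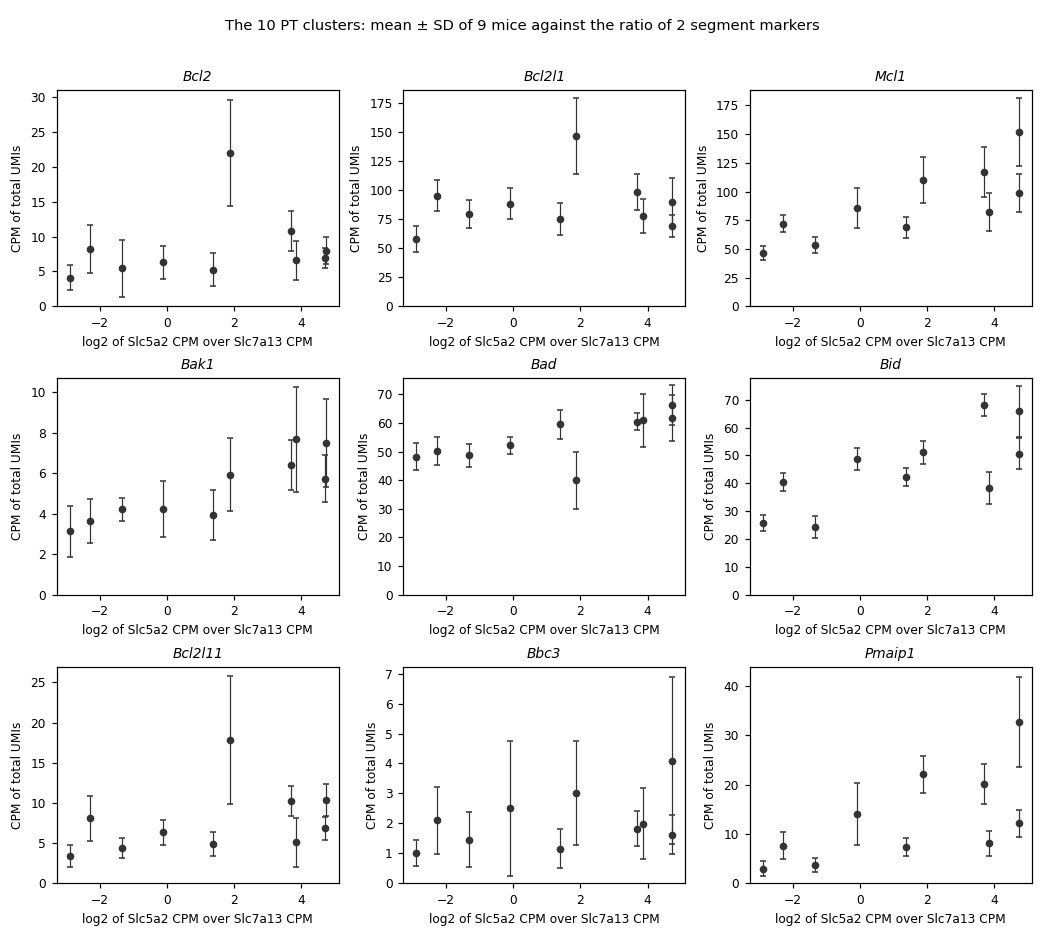
Levels of the 9 genes in the 10 PT clusters, in CPM (mean ± SD of 9 mice), against the log2 ratio of Slc5a2 to Slc7a13 CPM in the same cluster. Pmaip1, Mcl1 and Bid are lowest at the left, and the cluster near 2 stands out with 22.0 CPM of Bcl2, 147 CPM of Bcl2l1 and 17.8 CPM of Bcl2l11.

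The group comparisons asked whether any of the 9 genes changed after cisplatin or with ergothioneine. UMIs were summed per mouse in each of 6 populations and tested with edgeR's quasi-likelihood test over all genes that passed its filter on low counts. Of the 9 genes, 0 were called at an adjusted p under 0.05 in each of the 12 tests, and 0 with DESeq2 as well. DESeq2 gives no adjusted p to genes that its own filters drop, and these count as not called. In DCT cells after cisplatin, for example, 1755 genes had one, against 11943 with edgeR. Pmaip1 did not pass edgeR's filter in endothelial cells, and all 9 genes passed it in the other populations. At an unadjusted p under 0.05, the counts for AKI-CKD against Control were 1 in all kept cells, 0 in PT, 1 in LOH, 1 in DCT and 1 in endothelial cells and 0 in macrophages. For AKI-CKD + EGT against AKI-CKD they were 2, 2, 2, 2, 1 and 1. Of all genes tested, 8.02%, 11%, 11.6%, 9.47%, 9.24% and 5.31% had such a p for the first comparison and 12.7%, 14.7%, 14.2%, 12.4%, 9.74% and 6.69% for the second, in the same order of populations.

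These counts stand against few calls among all genes. In all kept cells, 0.0199% of tested genes were called for AKI-CKD against Control and 0.00496% for AKI-CKD + EGT against AKI-CKD. The shares were 0.0394% and 0% in PT cells, 0.0755% and 0.377% in LOH cells, 0% and 0% in DCT cells, 0% and 0.00963% in endothelial cells and 0.0142% and 0.0142% in macrophages. A missed threshold at 3 mice a group does not show that a gene was the same in both groups, and the values of each mouse follow, as CPM scaled by TMM (edgeR's correction for composition).

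In PT cells, Bcl2 was at 6.64, 7.65 and 7.50 CPM in the Control mice, 7.74, 6.15 and 5.99 in AKI-CKD mice, with 8.32, 9.08 and 12.04 in AKI-CKD + EGT mice. Each AKI-CKD + EGT mouse lay above each AKI-CKD mouse, while AKI-CKD and Control mice overlapped. The difference with ergothioneine was 0.56 ± 0.17 (log2 fold change ± SE, edgeR adjusted p = 0.239). Without AKI-CKD + EGT mouse 3 it was 0.40, and over all alternatives tried it ran from 0.40 to 0.69. The same comparison gave 0.58 ± 0.15 in all kept cells (adjusted p = 0.318) and 1.00 ± 0.31 in endothelial cells (adjusted p = 0.313), where the mice with ergothioneine were at 25.2, 21.1 and 21.7 CPM and the AKI-CKD mice at 10.48, 15.96 and 5.60. In all kept cells the value was 0.43 without AKI-CKD + EGT mouse 3, the library with 17.0% DCT cells. Bcl2 averaged 23.9 CPM in DCT and 8.06 CPM in PT cells, and the part of the cell type mix in that value was not tested. None of these passed the threshold.

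The other protective genes showed smaller differences in PT cells. Bcl2l1 differed by 0.07 ± 0.15 after cisplatin and by 0.04 ± 0.15 with ergothioneine, and the groups overlapped. Mcl1 differed by -0.07 ± 0.17 and -0.10 ± 0.17. These values depend on the scaling by TMM. In plain CPM the PT means of Control, AKI-CKD and AKI-CKD + EGT mice were 83.2, 80.85 and 97.7 for Bcl2l1. For Mcl1 they were 91.5, 81.0 and 88.0. On that scale both genes were higher with ergothioneine by value. The group tests were not run on plain CPM. In LOH cells Mcl1 was at 110, 126 and 149 CPM in AKI-CKD mice, with 89.8, 109 and 112 in AKI-CKD + EGT mice, a difference of -0.30 ± 0.16 (edgeR adjusted p = 0.410).

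Bak1 differed more in LOH and DCT cells than in PT cells by value. In LOH cells it was at 9.31, 6.10 and 7.63 CPM in Control mice, 13.3, 14.5 and 12.4 in AKI-CKD mice, with 4.42, 9.83 and 5.93 in AKI-CKD + EGT mice. The AKI-CKD mice lay above each mouse of the other groups. The log2 fold change was 0.80 ± 0.31 after cisplatin (edgeR adjusted p = 0.336) and -0.97 ± 0.31 with ergothioneine (adjusted p = 0.178), and its direction held in all alternatives tried (0.65 to 1.05 and -1.28 to -0.76).

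In DCT cells Bak1 was at 6.19, 6.72 and 8.30 CPM in Control mice, 8.67, 21.3 and 12.5 in AKI-CKD mice, with 10.8, 7.29 and 8.99 in AKI-CKD + EGT mice. AKI-CKD mouse 2 was well above the other mice. The difference after cisplatin was 1.02 ± 0.32 (edgeR adjusted p = 0.444). Without AKI-CKD mouse 2 it was 0.56, and with no filter on low counts it was 1.01 and passed the threshold (adjusted p = 0.0448), in a fit that called 1.07% of all genes, against 0% with the filter. With ergothioneine the difference was -0.66 ± 0.30 (adjusted p = 0.399), and -0.20 without AKI-CKD mouse 2. In PT cells Bak1 stayed between 3.48 and 6.86 CPM over the 9 mice with overlapping groups.

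Bad had its highest PT and DCT values in AKI-CKD mice. In PT cells it was at 45.9, 55.9 and 54.9 CPM in Control mice, 61.3, 62.7 and 63.0 in AKI-CKD mice, with 54.2, 51.4 and 42.8 in AKI-CKD + EGT mice, with no overlap of the AKI-CKD mice with either group. The differences were 0.25 ± 0.13 (edgeR adjusted p = 0.477) and -0.33 ± 0.13 (adjusted p = 0.287). In DCT cells they were 0.30 ± 0.14 (adjusted p = 0.533) and -0.37 ± 0.14 (adjusted p = 0.345), also without overlap. LOH cells overlapped, with AKI-CKD mice at 44.8, 79.7 and 60.5 CPM. Bid differed by 0.10 ± 0.14 and -0.18 ± 0.14 in PT cells, and by at most 0.07 in size in LOH and DCT cells. In plain CPM the PT means of Control, AKI-CKD and AKI-CKD + EGT mice were 51.6, 58.0 and 53.4 for Bad. For Bid they were 45.3, 45.6 and 46.6, so on that scale Bid was not lower with ergothioneine by value.

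Bcl2l11 in LOH cells was at 8.62, 7.18 and 6.67 CPM in Control mice, 5.81, 5.51 and 6.49 in AKI-CKD mice, with 7.36, 10.2 and 10.4 in AKI-CKD + EGT mice. The AKI-CKD mice were lowest with no overlap. The differences were -0.34 ± 0.32 (edgeR adjusted p = 0.729) and 0.70 ± 0.31 (adjusted p = 0.324). In macrophages the AKI-CKD + EGT mice, at 24.2, 21.1 and 27.0 CPM, lay above the AKI-CKD mice, at 19.6, 7.80 and 12.3 (1.07 ± 0.41, adjusted p = 0.669).

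The p53 targets Bbc3 and Pmaip1 were scattered in PT cells. Pmaip1 was at 12.9, 10.8 and 8.95 CPM in Control mice, 12.5, 20.5 and 14.1 in AKI-CKD mice, with 14.0, 8.03 and 14.0 in AKI-CKD + EGT mice. The difference after cisplatin was 0.53 ± 0.24 (edgeR adjusted p = 0.456), with AKI-CKD mouse 2 the highest of the 9, and 0.30 without that mouse. Bbc3 was at 2.88, 1.09 and 0.835 CPM, 1.18, 4.00 and 2.24 CPM, and 1.88, 1.47 and 2.35 CPM in the same order (0.62 ± 0.50, adjusted p = 0.628). This value rested on single mice: it was 1.35 without Control mouse 1 and 0.10 without AKI-CKD mouse 2. In LOH cells Bbc3 differed by -1.004 ± 0.504 with ergothioneine (adjusted p = 0.386), by -2.09 without AKI-CKD + EGT mouse 3 and by -0.46 without AKI-CKD mouse 2. In macrophages, where both genes had their highest level, Bbc3 differed by 0.07 ± 0.50 and -0.26 ± 0.52 and Pmaip1 by 0.40 ± 0.40 and 0.33 ± 0.39, with overlapping groups.

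In endothelial cells, Bcl2 was at 17.8, 17.0 and 23.1 CPM in Control mice, above each AKI-CKD mouse, a difference of -0.77 ± 0.32 after cisplatin (edgeR adjusted p = 0.508). Bad was at 61.9, 60.5 and 59.0 CPM in Control mice, 85.5, 71.5 and 71.8 in AKI-CKD mice, with 69.2, 58.8 and 53.9 in AKI-CKD + EGT mice. The AKI-CKD mice were highest with no overlap, as in PT and DCT cells (0.33 ± 0.17, adjusted p = 0.576, and -0.34 ± 0.17, adjusted p = 0.527). The other 6 genes tested there overlapped between groups, with differences of -0.13 (Bak1) to 0.38 (Mcl1) after cisplatin and of -0.36 (Bcl2l1) to -0.04 (Bak1) with ergothioneine, and with Bid, Bcl2l11 and Bbc3 in between.

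In macrophages Bad went the other way by value, at 60.2, 53.8 and 55.6 CPM in Control mice and 52.3, 40.6 and 49.3 in AKI-CKD mice (-0.29 ± 0.26, edgeR adjusted p = 0.957). Bid was at 31.3, 33.2 and 28.6 CPM in Control mice and 26.2, 15.6 and 26.2 in AKI-CKD mice, also without overlap (-0.52 ± 0.36, adjusted p = 0.941). Bcl2 (-0.59 and 0.88), Bcl2l1 (0.04 and 0.18), Mcl1 (0.00 and 0.03) and Bak1 (0.76 and -0.42) overlapped in both comparisons, as did Bad (0.15) and Bid (0.62) with ergothioneine. In all kept cells Bad differed by 0.23 ± 0.13 and -0.37 ± 0.14, without overlap in either comparison, and Pmaip1 by 0.49 ± 0.22 and -0.41 ± 0.22 with overlap. The other genes there differed by -0.14 (Bcl2) to 0.45 (Bbc3) after cisplatin, and, Bcl2 aside, by -0.25 (Bid) to 0.13 (Bcl2l11) with ergothioneine.

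The values not yet given for PT, LOH and DCT cells overlapped between the groups. In PT cells Bak1 differed by 0.26 and -0.18 and Bcl2l11 by 0.19 and 0.15, Bcl2 by -0.13 after cisplatin, and Bbc3 by -0.37 and Pmaip1 by -0.38 with ergothioneine. In LOH cells Bcl2 differed by 0.15 and 0.17, Bcl2l1 by -0.01 and 0.11, Bad by 0.18 and -0.21 and Pmaip1 by 0.12 and 0.10, while after cisplatin Mcl1 differed by 0.04 and Bbc3 by 0.65 ± 0.50. In DCT cells the differences were 0.31 and 0.11 for Bcl2, 0.04 and 0.00 for Bcl2l1, 0.05 and -0.10 for Mcl1, 0.22 and 0.10 for Bcl2l11, 0.22 and 0.06 for Bbc3, and 0.05 and 0.20 for Pmaip1, cisplatin before ergothioneine.

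**Figure D4:**
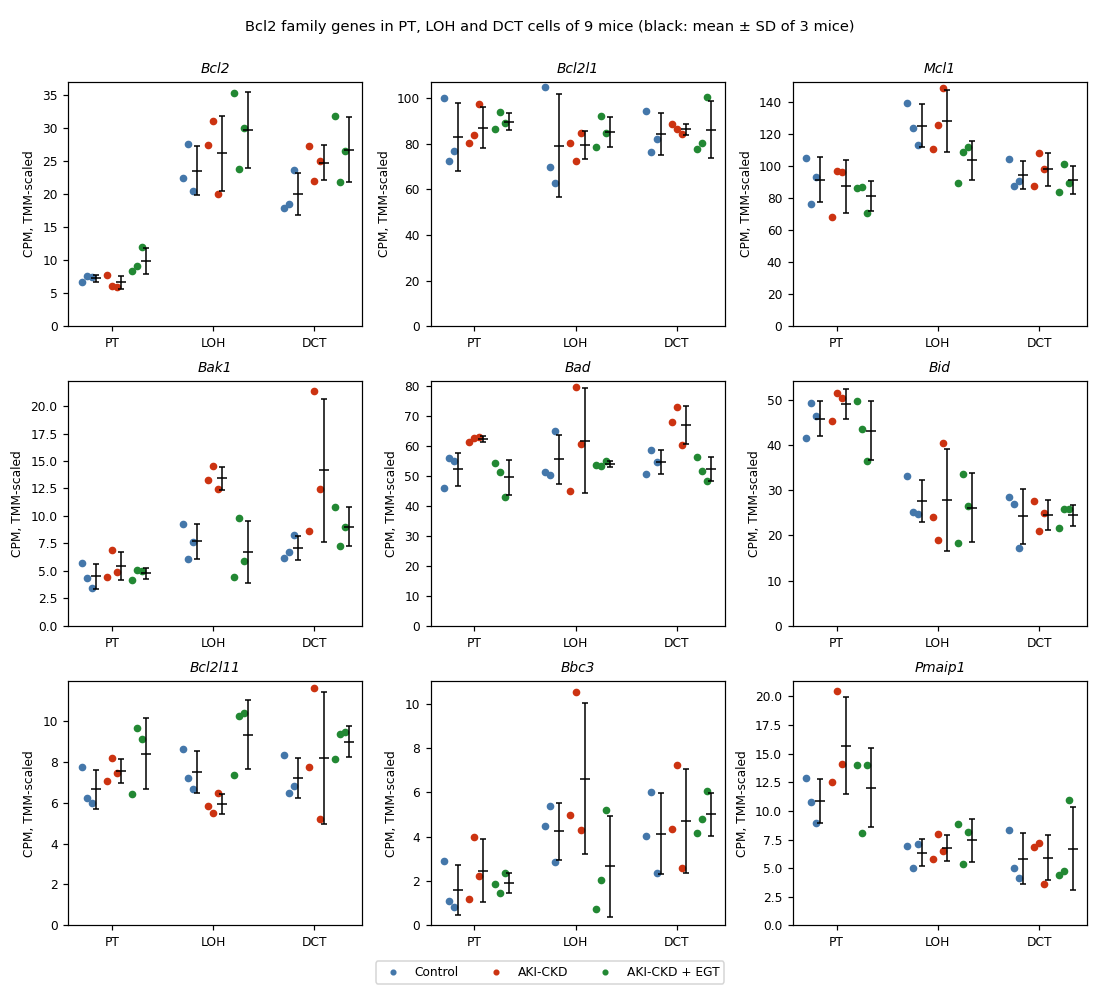
TMM-scaled CPM of the 9 genes in PT, LOH and DCT cells. Each coloured point is 1 mouse (Control, AKI-CKD, AKI-CKD + EGT from left to right in each cell type) and the black bars are the mean ± SD of 3 mice. In LOH cells the 3 AKI-CKD mice have 12.4 to 14.5 CPM of Bak1, above the other 6 mice, and AKI-CKD + EGT mice have the highest PT values of Bcl2.

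Groups without overlap are common in these data. In PT cells, 20.7% of tested genes had the 3 mice of 1 group all above or all below the other 3 for AKI-CKD against Control, and 20.9% for AKI-CKD + EGT against AKI-CKD. These shares were 16.9% and 17.1% in LOH cells, 16.3% and 16.8% in DCT cells, 14.6% and 15% in endothelial cells, 11.4% and 12.4% in macrophages and 15.8% and 18.3% in all kept cells. Among the 9 genes the counts were 1 (Bad) and 2 (Bcl2, Bad) in PT, 2 and 2 (Bak1, Bcl2l11 in both) in LOH, and 2 (Bak1, Bad) and 1 (Bad) in DCT cells. They were 2 and 2 (Bcl2, Bad in both) in endothelial cells, 2 (Bad, Bid) and 1 (Bcl2l11) in macrophages and 1 (Bad) and 2 (Bcl2, Bad) in all kept cells. Counts of 1 to 2 are near what the shares of all genes give for a list of this length.

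Genes that act with the family were counted by list, and the lists were chosen with earlier results of these data known. In PT cells, 4 of 24 listed p53 targets rose after cisplatin in edgeR's test and 14 had an unadjusted p under 0.05, with a median log2 fold change of 0.59 against -0.01 over all genes tested. The 4 were Cdkn1a (p21, which halts the cell cycle) from 7.53 ± 3.09 to 88.9 ± 39.5 CPM (SD, n = 3, adjusted p = 0.0341), Phlda3 (3.23 ± 0.36, adjusted p = 0.0124), Eda2r (3.46 ± 0.43, adjusted p = 0.0222) and Ephx1 (3.25 ± 0.29, adjusted p = 0.00462). The calls rested on single mice: 0 of the 24 were called without Control mouse 2, and 1 (Ephx1) when Control mouse 3 was left out, when either of the AKI-CKD mice numbered 2 and 3 was, or with only the 6 mice compared. DESeq2 called 11 and edgeR with no filter 9. The log2 fold changes of these 4 genes stayed between 2.98 and 4.06 in every fit. The median of the 9 Bcl2 family genes in the same comparison was 0.19. With ergothioneine, 0 of the 24 were called in PT cells, 14 had an unadjusted p under 0.05 and were lower, and the median was -0.51. DESeq2 and edgeR with no filter each called 5 of them as lower, and edgeR 1 without AKI-CKD + EGT mouse 1.

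In LOH cells 3 of 21 tested p53 targets rose after cisplatin, Cdkn1a by 1.65, Phlda3 by 3.19 and Ephx1 by 1.30, and Ephx1 was lower with ergothioneine (-1.24 ± 0.22, edgeR adjusted p = 0.0288). The count after cisplatin was 0 when either of the Control mice numbered 2 and 3 was left out, or the AKI-CKD mouse numbered 2, and Ephx1 was not called with ergothioneine without any 1 of the 3 AKI-CKD mice or without AKI-CKD + EGT mouse 2 or 3, or without Harmony. In all kept cells 3 of 24 rose (Phlda3, Eda2r and Ephx1), and 0 when any 1 of the mice numbered 2 and 3 of these groups was left out, or with only the 6 mice compared. With the filter on low counts and all 9 mice, 0 of the tested p53 targets were called in DCT cells, endothelial cells or macrophages, where 7, 6 and 4 had an unadjusted p under 0.05. With no filter, 8 were called as higher after cisplatin and 5 as lower with ergothioneine in DCT cells, and 1 and 2 in endothelial cells. None of the other Bcl2 family list (8 to 13 of 15 tested), of the apoptosis execution list (13 to 27 of 27 tested, among them the caspases) or of the regulators of the members (15 to 18 of 18 tested) was called in any of the 12 tests, and DESeq2 or edgeR with no filter called at most 1 gene of a list. At an unadjusted p under 0.05 these lists had at most 4 genes in a test. Bax, the partner of Bak1, was at 77.4, 89.3 and 81.0 CPM in PT cells of Control mice and 110, 144 and 139 in AKI-CKD mice (0.66 ± 0.17, edgeR adjusted p = 0.317).

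Genes that dissociation of tissue is known to induce varied between the libraries. Of a list of 16, 0 were called after cisplatin in any population, and 1, Hspa1a, was lower in LOH cells with ergothioneine (-1.45 ± 0.30, edgeR adjusted p = 0.0446), a call that was lost without any 1 of the AKI-CKD mice, without AKI-CKD + EGT mouse 2 or 3, with a mitochondrial limit of 10% and without Harmony. With no filter on low counts, 1 of the 16 was higher after cisplatin in DCT and 1 in endothelial cells, and with ergothioneine 5 were lower in LOH, 5 in DCT, 4 in endothelial and 1 in PT cells. DESeq2 called 1 as lower with ergothioneine in each of all kept cells, PT, LOH and DCT cells. Their summed level in PT cells was 1205 to 3143 CPM in Control mice, 1788 to 3476 in AKI-CKD mice and 1613 to 3551 in AKI-CKD + EGT mice. The median log2 fold change of the list after cisplatin and with ergothioneine was 0.29 and -0.47 in DCT cells, 0.25 and -0.32 in LOH cells and 0.43 and -0.46 in endothelial cells. Bak1 and Bad in DCT and LOH cells and Bad in endothelial cells had the same directions by value, though Bad overlapped between groups in LOH cells. Bcl2l11 in LOH cells (-0.34 and 0.70) and Bcl2 in endothelial cells (-0.77 and 1.00) had the opposite directions. The other members were not set beside the list here. In PT cells the median of the list was 0.22 and 0.01. After cisplatin, leaving out AKI-CKD mouse 2 turned the median to -0.04 in LOH and -0.24 in PT cells. Leaving out Control mouse 3 turned it to -0.12 and -0.08, so this direction rested on single mice there. The mitochondrial share of PT UMIs with no upper limit was 1.58% to 7.58% in Control, 2.29% to 3.70% in AKI-CKD and 4.20% to 7.61% in AKI-CKD + EGT mice.

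Bak1 in PT cells tracked the dissociation list over the mice. Of 18 relations tested between a member's PT level and either measure, 1 passed, Bak1 with the dissociation list (Pearson's r = 0.93, exact permutation p = 0.000375, adjusted p = 0.00675; Spearman's rho = 0.85, exact permutation p = 0.00607, adjusted p = 0.0969; n = 9 mice). Without the 2 mice farthest from the median, r was 0.90 (adjusted p = 0.179), and with the group means removed it was 0.93 (exact permutation p = 0.00463, adjusted p = 0.0833). Without Control mouse 3 no relation passed, without Control mouse 2 there were 3, and without AKI-CKD mouse 2 there were 2. Next in size were Bbc3 with the dissociation list (r = 0.78, adjusted p = 0.102), Bcl2l1 with the mitochondrial share (r = 0.75, adjusted p = 0.102) and Bcl2l11 with the dissociation list (r = 0.73, adjusted p = 0.102). Bcl2 and Bad had r = 0.64 and -0.64 with the mitochondrial share (exact permutation, adjusted p = 0.139 each). Like these genes in PT cells, that share did not overlap between AKI-CKD + EGT and AKI-CKD mice. The part of dissociation and of the mitochondrial share in the group differences was not tested.

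Whether a group difference was itself different between tubule cell types was tested with limma on the difference between 2 types in the same mouse. Of the 9 genes, 0 were called in each of the 6 tests, and at an unadjusted p under 0.05 the count was 0 in the 3 tests after cisplatin and 1 in each of the 3 tests with ergothioneine. Of all genes, 11.5%, 6.92% and 5.39% had such a p after cisplatin and 14.4%, 8.98% and 5.95% with ergothioneine, for LOH minus PT, DCT minus PT and DCT minus LOH. After adjustment, 0.00945% and 0.0567% of all genes were called for LOH minus PT, 0% and 0% for DCT minus PT, and 0.00952% and 0.0667% for DCT minus LOH, AKI-CKD against Control given before AKI-CKD + EGT against AKI-CKD. The 3 genes were Bak1 for LOH minus PT (-0.95 ± 0.33, adjusted p = 0.198), Bcl2 for DCT minus PT (-0.53 ± 0.24, adjusted p = 0.543) and Bbc3 for DCT minus LOH (1.57 ± 0.52, adjusted p = 0.653). The values of Bak1 in LOH cells and of Bcl2 in PT cells were therefore not shown to be particular to those cells.

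As Cdkn1a was among the genes called in PT cells, PT cells of each mouse were split into those with at least 1 Cdkn1a UMI and those with none, and the 9 genes were compared between the parts. Of PT cells, 1.08% to 2.48% had a Cdkn1a UMI in Control mice, 8.08% to 14.97% in AKI-CKD mice and 3.45% to 8.21% in AKI-CKD + EGT mice. After each cell was thinned to 1000 UMIs, these shares were 0.327% to 0.822%, 3.17% to 6.72% and 1.37% to 3.04%. Cells with the UMI were deeper, with medians of 4313 to 5286.5 UMIs per mouse against 2791 to 3595. No cell type here lacked Cdkn1a, whose lowest mean level was 21.5 CPM in B cells, so the share that RNA from outside the cells gives was not measured.

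Of the 9 genes, 5 were higher in PT cells with a Cdkn1a UMI and 0 lower, in edgeR's test with the mouse as a block, where 6.51% of all tested genes were called in either direction. Bbc3 differed most. In cells with the UMI it was at 5.79, 3.85 and 0.851 CPM in Control mice, 1.99, 7.57 and 3.40 in AKI-CKD mice, with 4.09, 4.15 and 5.16 in AKI-CKD + EGT mice. In cells without, it was at 2.92, 1.00 and 0.831 CPM, 1.07, 3.00 and 1.96 CPM, and 1.58, 1.38 and 2.28 CPM in the same order. The value was higher in 9 of 9 mice, by a log2 fold change of 1.18 ± 0.16 (adjusted p = 1.73e-06), though by 0.851 against 0.831 CPM in Control mouse 3.

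Pmaip1, the other p53 target, averaged 18.3 CPM in cells with the UMI and 12.4 without, and was higher in 9 of 9 mice (0.55 ± 0.07, edgeR adjusted p = 6.99e-07). Bcl2l11 averaged 10.3 against 7.43 CPM and was also higher in 9 of 9 (0.45 ± 0.08, adjusted p = 0.000303). The protective genes Mcl1 and Bcl2l1 were higher by less, each 0.13 ± 0.03 and higher in 8 of 9 mice (adjusted p = 0.0044 and 0.0106). Bcl2 (-0.13 ± 0.11), Bak1 (0.10 ± 0.11), Bad (-0.11 ± 0.04, adjusted p = 0.137) and Bid (-0.04 ± 0.04) were not called. Before thinning to equal depth, the BH3-only genes Bbc3, Pmaip1 and Bcl2l11 thus had the largest differences of the 9 genes.

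**Figure D5:**
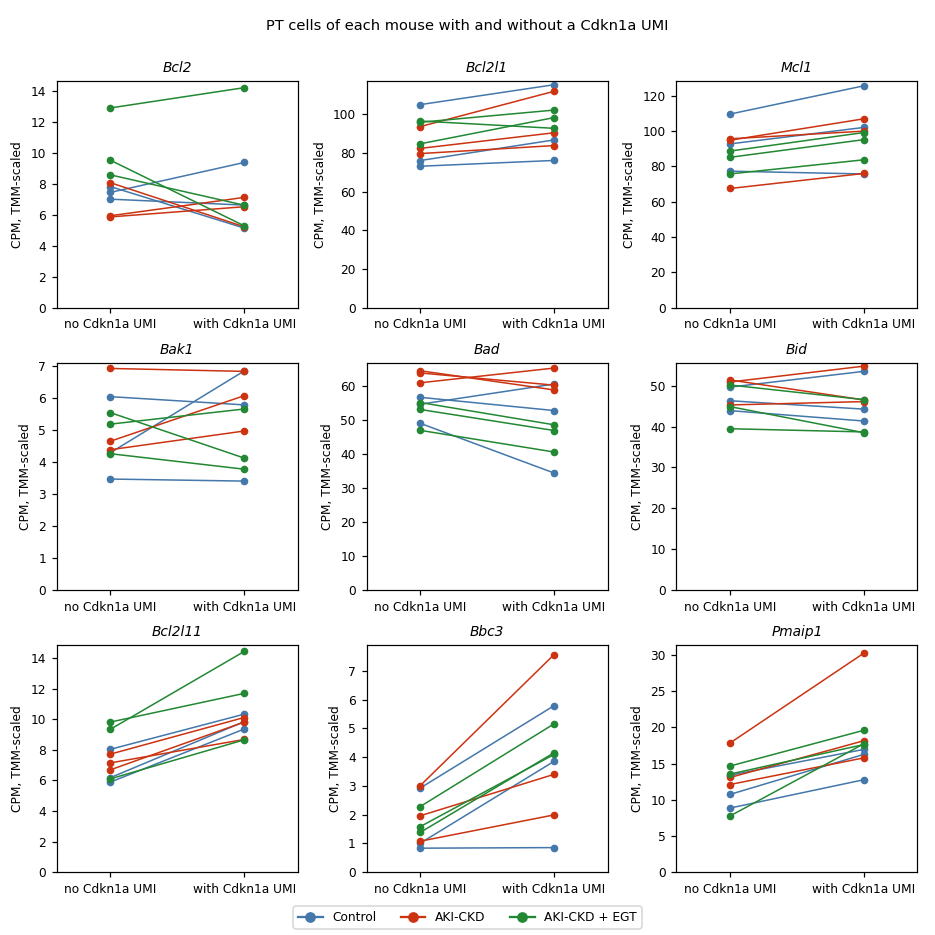
TMM-scaled CPM of the 9 genes in PT cells with no Cdkn1a UMI (left point) and with at least 1 (right point), joined by a line for each mouse and coloured by group. The lines of Bbc3, Pmaip1 and Bcl2l11 rise in 9 of 9 mice and those of Mcl1 and Bcl2l1 in 8 of 9, while those of Bad fall in 7 of 9.

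At equal depth fewer of the calls held, with fewer cells having the UMI and larger SE (0.22 against 0.07 for Pmaip1). The parts of depth and of lost precision in this drop were not separated. With PT cells thinned to 1000 UMIs, 2 of the 9 genes were called, against 3.1% of all genes, namely Bbc3 (1.44 ± 0.42, higher in 8 of 9 mice, edgeR adjusted p = 0.0252) and Bcl2l1 (0.32 ± 0.09, higher in 7 of 9, adjusted p = 0.0228). A Bbc3 UMI was found in 0.183% of all thinned PT cells, so the Bbc3 call and its count of mice rest on few UMIs. Pmaip1 was then at 12.91 against 12.02 CPM (0.43 ± 0.22, higher in 5 of 9, adjusted p = 0.402), Bcl2l11 differed by 0.67 ± 0.27 (higher in 6 of 9, adjusted p = 0.215) and Mcl1 by 0.24 ± 0.09 (higher in 8 of 9, adjusted p = 0.186). Bak1 was lower by value (-0.45 ± 0.41, higher in 2 of 9 mice, adjusted p = 0.766), and Bcl2 (-0.08 ± 0.33), Bad (-0.14 ± 0.12) and Bid (-0.07 ± 0.13) were not called either. The median over the 9 genes was 0.24, against 0.13 without thinning. Without thinning, within groups of 3 mice, Bbc3 and Pmaip1 were called in AKI-CKD mice (1.05, adjusted p = 0.00184, and 0.57, adjusted p = 5.94e-05) and in AKI-CKD + EGT mice (1.35, adjusted p = 0.00772, and 0.57, adjusted p = 0.0191). In Control mice, with 178 to 435 such cells each, 0 were called (Bbc3 1.20, adjusted p = 0.198). The difference between groups in these values was not tested, and the share of all genes called in each of these fits is not given.

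Other genes moved with the same cells. Of 23 p53 targets tested besides Cdkn1a, 15 were higher and 0 lower, among them Ephx1 (2.23), Psrc1 (2.18), Phlda3 (2.11) and Eda2r (2.02, log2 fold changes). Of the dissociation list 14 of 16 were higher, with a median of 0.39, so the cells with a Cdkn1a UMI also carried more of that RNA, for example Egr1 (0.58), Klf6 (0.51), Ier2 (0.51) and Atf3 (0.66). Of the other Bcl2 family, Bax was higher in 9 of 9 mice (0.17 ± 0.04, edgeR adjusted p = 0.00237) and 8 more tested genes were not called. Of the execution list Tnfrsf10b, a death receptor and itself a p53 target, was higher (0.99) and Cycs, which encodes cytochrome c, lower (-0.12). Of the regulators of the members 6 of 18 were higher, led by Atf3 (0.66), Jun (0.51) and Ddit3 (0.29), stress factors of which Ddit3 is known to act on Bcl2l11 and Bbc3. Atf3 and Jun are on the dissociation list as well. Some of the genes counted as p53 targets are also counted under another list or among the 9 genes, so the counts of the lists are not independent. With PT cells thinned to 1000 UMIs these counts were lower: 10 of 20 p53 targets, 10 of 15 dissociation genes, 2 of 18 regulators (Atf3, 0.75, and Jun, 0.54), 0 of 21 execution genes and 1 of 8 of the other Bcl2 family (Bax, 0.29) were higher, and Cycs was lower (-0.21). The median of the dissociation list was then 0.51, above its 0.39 without thinning, and that of the p53 targets 0.47, below 0.61. The part of depth and of dissociation in the Bcl2 family values was not tested beyond the thinned comparison. The split pooled all PT clusters, which differed in Pmaip1, Mcl1 and Bid, and the part of the cluster mix was not tested.

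The start sites of the genes called in the thinned cells are shown to set that result beside the sequence. RefSeq promoters (250 bases before to 50 after a start site, build GRCm38.p6, while the counts rest on GRCm39) were searched for 8 of the 9 genes, and Pmaip1 was left out. RefSeq lists 3 windows for Bbc3 and 3 for Bcl2l1, and the window farthest upstream is printed for each. Capitals mark the GC box, GGGCGG on either strand, which the factor Sp1 is known to bind.
Bbc3, chr7:16309333-16309632, plus strand: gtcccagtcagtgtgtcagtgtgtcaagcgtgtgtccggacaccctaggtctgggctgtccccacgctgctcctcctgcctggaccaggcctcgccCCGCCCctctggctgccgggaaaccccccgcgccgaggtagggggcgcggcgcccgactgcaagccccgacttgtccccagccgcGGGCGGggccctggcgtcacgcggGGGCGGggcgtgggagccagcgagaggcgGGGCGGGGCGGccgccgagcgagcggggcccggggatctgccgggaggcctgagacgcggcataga
Bcl2l1, chr2:152831679-152831978, minus strand: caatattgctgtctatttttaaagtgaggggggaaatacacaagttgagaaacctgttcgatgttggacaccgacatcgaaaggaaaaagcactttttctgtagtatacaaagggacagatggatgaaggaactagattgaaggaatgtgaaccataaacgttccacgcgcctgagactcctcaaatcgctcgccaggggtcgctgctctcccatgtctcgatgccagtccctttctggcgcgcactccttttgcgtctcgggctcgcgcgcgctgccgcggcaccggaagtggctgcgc
The Bbc3 window printed held 5 GC boxes, the first of them at position -154 from the start site, and the other Bbc3 windows 4 and 7. The 3 Bcl2l1 windows held 0. The GC content of the printed windows was 76.0% and 52.3%. Of 32851 mouse promoter windows of this length, 35.7% held a GC box. A p53 half-site was found in 8.36% of all windows and in 0 of those of the 8 genes, which says only that these letters are not within these 300 bases. Pmaip1 is not among the 8.

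T cells were outside the group tests, and their values are given as they stand, chosen after they were seen. Bcl2l11 was at 93.0, 70.1 and 58.5 CPM in Control mice, 26.9, 38.8 and 40.7 in AKI-CKD mice, with 77.4, 94.5 and 76.6 in AKI-CKD + EGT mice, from 6 to 57 UMIs a mouse. Bcl2 was at 107, 73.3 and 58.5 CPM, 31.4, 43.1 and 40.7 CPM, and 90.3, 86.2 and 59.2 CPM in the same order. Both genes were lowest in the 3 AKI-CKD mice, with no overlap. Of 4560 genes passing the filter on low counts in T cells, 16.5% had no overlap for AKI-CKD against Control and 17.2% for AKI-CKD + EGT against AKI-CKD. In the direction of Bcl2 and Bcl2l11 these were the larger share: 483 genes were lower and 271 higher in AKI-CKD than in Control mice, while 573 were higher and 211 lower with ergothioneine. Bcl2l1 went another way, with means of 46.7, 56.4 and 71.8 CPM in Control, AKI-CKD and AKI-CKD + EGT mice and no overlap between the latter 2 groups. Pmaip1 was above Control in each AKI-CKD mouse (means of 16.2 and 7.12 CPM), from 10 UMIs a mouse at most, and like Bak1 and Bbc3 did not pass that filter. Mcl1, Bak1, Bad, Bid and Bbc3 overlapped in both comparisons. T cells numbered 60 to 218 a mouse, the kinds of T cell among them were not separated, and no test was run.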

How the data were processed

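Kidney cells of 9 mice were captured in droplets with the DNBelab C-TaiM4 kit, and for each mouse the authors deposited UMI counts by gene and barcode, not normalised and written by PISA per the file headers and on GRCm39 per the submitters' processing notes. The aligner, the gene annotation and the cell calling are not given in the sources used here. The lowest total of a deposited barcode was 1000 UMIs. A barcode was kept as a cell if it had 1000 UMIs and 500 genes or more, with a mitochondrial share of no more than 15%. Clustering (scanpy 1.11.5, Python 3.11.15) used 2000 variable genes without the 9 genes and the listed genes, 30 principal components, a Harmony correction by library written for this work, 20 neighbours and resolution 1.1. A cluster was named when at least 3 markers of a type were 1.5-fold higher than elsewhere. The 1.5-fold limit, and leaving a cluster led by erythroid genes unnamed, were set after the clusters were seen. In all, 3 clusters with 27899 cells (14.2%) stayed unnamed, and 92 cells fell outside clusters. A Scrublet-style score written for this work did not separate doublets clearly, so none were removed in the main analysis, and an alternative left out the highest 6% per library (11816 cells). Podocytes were left out of the orders, with 17 cells in the mouse with the fewest.

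Counts were summed per mouse and population and tested with edgeR 4.0.16 (quasi-likelihood, TMM, filterByExpr, all 9 mice in 1 fit) in R 4.3.3, with limma 3.58.1 (prior count of 1) for differences between cell types, and with exact permutation tests for single values on log2(CPM + 1). p-values were adjusted by the Benjamini-Hochberg method, over all genes tested where the test ran over genes. The mice are separate animals, so p-values of the group tests measure the spread between mice within a group. Those of the sign-flip tests and of the comparison by Cdkn1a UMI rest on differences within each mouse. The main p-values of the correlations rest on the pairings of values over the 9 mice, with groups ignored. The library totals of 70106161 to 101525691 UMIs set the precision, and few UMIs stand behind Bbc3, Pmaip1, Bak1 and Bcl2l11 in the rarer cell types. Tests were checked on simulated data. With a log2 fold change of 1 set in 200 genes, edgeR called 98 of them in PT, 103 in LOH and 83 in DCT cells. It also called 7, 5 and 12 unchanged genes. With a log2 fold change of 2 it called 168, 182 and 182 of 200. Many changes of the smaller size would thus be missed.

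The 9 genes, the gene lists and the marker lists were chosen with earlier results of these data known. All 9 genes are covered in each group comparison and in the comparison by Cdkn1a UMI over 9 mice, some by their range, a listed gene only when it was called (at most 4 per list by size of change) or is Bax, and other genes only as closest profiles or segment and injury markers of PT cells. Alternatives were DESeq2 1.42.0, no filter on low counts, the 6 mice compared alone, a replicate block, library sizes without mitochondrial, ribosomal protein and Malat1 counts, a mitochondrial limit of 10%, no Harmony, no doublets, other pseudocounts and prior counts, thinning, and each mouse left out in turn. Labels share replicate numbers between groups, but no source says that a number marks a litter or batch. Promoter sequences came from RefSeq tables, and p53 sites were searched on both strands by the consensus of the half-site. Cell-level tests were not used, since cells of 1 mouse are not replicates.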

Additional observations from a re-analysis of the deposited data

How the results depend on the processing

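The count of 0 called genes of the 9 held in each of the 12 group tests under the alternatives run, except that 1 (Bak1) was called in DCT cells after cisplatin with no filter on low counts, where 1.07% of all genes were called. The counts of 0 for the 6 differences between cell types held under each alternative run. For PT cells with a Cdkn1a UMI, the count of 5 became 2 after thinning (Bcl2l11 from 0.45 to 0.67, Mcl1 from 0.13 to 0.24 and Pmaip1 from 0.55 to 0.43 were no longer called), and 0, 2 and 2 within Control, AKI-CKD and AKI-CKD + EGT mice, where fewer mice entered. Leaving out each mouse in turn gave 4 to 6. The share of all genes called is not given for the fits within groups or with a mouse left out. The count of 0 neighbouring pairs could hardly move, since the smallest p that 9 mice can give did not pass. The highest type held for 7 to 9 and the lowest for 7 to 9 of the 9 genes under the other settings, but for 7 and 4 without Harmony, where podocytes took the lowest place of 4 genes. In place of neighbours, 61 differences from PT cells passed, a comparison chosen after seeing the data and not run over all genes. The 1 correlation became 0 once the 2 mice farthest from the median were left out and 0 with group means removed, and 0 to 3 with each mouse left out. Of 913 refitted log2 fold changes of the 9 genes in PT, LOH and DCT cells, 896 moved by less than the spread between mice and 17 moved by more. In 28 of 54 results a sign changed under some setting, the largest of them 0.37 in size. The cause of these shifts was not tested.

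With the replicate number as a block, 0 of the 9 genes were called in each of the 12 group tests and the 6 differences. With the block, 0 p53 targets were called after cisplatin in PT cells, 1 in LOH cells and 0 in all kept cells, against 4, 3 and 3 without it, and with ergothioneine neither Ephx1 (adjusted p = 0.0704) nor Hspa1a was called in LOH cells. The numbers did not pair the mice: same-numbered mice had correlations of deviations from -0.45 to 0.37, and in 0 of 12 comparisons did all 3 exceed 0.1.

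DESeq2 called more genes than edgeR in 5 of 6 populations and 1 against 1 in macrophages, though 0 of the 9. DESeq2 gave no adjusted p to some genes, which count as not called. For AKI-CKD against Control it called 112 against 4 in all kept cells, 180 against 7 in PT, 46 against 8 in LOH, 19 against 0 in DCT and 13 against 0 in endothelial cells. For AKI-CKD + EGT against AKI-CKD it called 217 against 1, 387 against 0, 109 against 40, 65 against 0 and 81 against 1. Over all settings the calls in LOH cells ran from 0 to 241 and from 1 to 438, and in DCT cells from 0 to 270 and from 0 to 481. Without AKI-CKD + EGT mouse 1, edgeR called 89, 256 and 162 genes with ergothioneine in PT, LOH and DCT cells. Low counts of Bbc3, Pmaip1, Bak1 and Bcl2l11 limit what these data can show outside PT cells.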
